A study of Mus musculus with 4 samples.

Results

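The lysosome genes examined here are 41 genes of the lysosomal compartment, taken by symbol, out of 21885 genes in the deposited tables. They are 9 cathepsins, 6 subunits or accessory proteins of the proton pump, 12 other hydrolases, 3 soluble cofactors, 9 membrane proteins and 2 transcription factors. Their RNA was read in 4 heart sections, each from 1 mouse, with Visium arrays, which capture polyadenylated RNA on a grid of spots that each cover several cells. The mice were Collagen1a1-GFP+, a line that carries GFP under a collagen promoter active in fibroblasts, and were 8 to 12 weeks old. The control heart was uninjured. The other hearts had a permanent ligation of the left anterior descending coronary artery and were taken 3 days after infarction (3 dpi, 1 heart) or 5 days after it (5 dpi, 2 hearts). Every section was 10 µm thick, from fresh-frozen tissue. All 4 hearts carry the reporter. Neither the control nor 3 dpi has a second heart.

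The 5 dpi sections are called by their labels, labelled female and labelled male, because 4 Y-linked genes gave 704 UMIs in the former and 1 in the latter, against 0 in the control and at 3 dpi, both labelled female. The main counts are therefore also given without each of them. Spots kept for analysis numbered 1146, 1741, 1535 and 1423 in the section order used throughout (control first, then 3 dpi, then the female-labelled and the male-labelled 5 dpi section), and held 3742105 to 9540940 UMIs outside mitochondrially encoded genes. Levels are given as CPM, a gene's UMIs scaled to 1000000 such UMIs. Where 3 values are given, they are those of the infarcted sections in this order.

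Lysosomes are acidic organelles in which proteins, lipids and glycans brought in by endocytosis, phagocytosis or autophagy are broken down. A vacuolar proton pump lowers the pH, cathepsins cut proteins, other hydrolases remove sugars, lipids and sulfates, and membrane proteins protect the limiting membrane and export the products. Macrophages that clear dead muscle after an infarct are rich in lysosomes, while cardiomyocytes use them mainly for autophagy. Tfeb and its relatives are transcription factors that bind short E-box sequences near lysosomal genes.

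Promoter sequences, 250 bases before to 50 after a gene's start, were listed in RefSeq (GRCm38.p6) for 35 of the 41 genes, and were searched on both strands for the E-box letters CACGTG. These letters were in a promoter of 11 of the 35 (31.4%), against 2187 of 27025 genes listed in all (8.09%). The longer form TCACGTG, which contains the first, was in 10 (28.6%) against 4.29% of all genes. The palindrome TCACGTGA, which contains both, was in 6 (17.1%) against 1.12%. The 6 windows below show the E-box, in capitals, which lies within the palindrome in Gla, Ctsd and Atp6v1a. The windows are from Gla and from 3 genes called higher in infarct than in muscle spots (Lgmn, Ctsd and the pump subunit Atp6v1a). The others are from Lamp1, with a small difference, and from Gaa, called lower though not lower in every section by CPM. Each is written 5′ to 3′ on the strand of its gene.
Gla, chrX:134601182-134601211, minus strand: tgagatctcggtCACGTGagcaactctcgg
Lgmn, chr12:102439124-102439153, minus strand: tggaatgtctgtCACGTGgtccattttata
Ctsd, chr7:142387908-142387937, minus strand: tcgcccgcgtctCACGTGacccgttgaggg
Atp6v1a, chr16:44139373-44139402, minus strand: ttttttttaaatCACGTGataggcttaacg
Lamp1, chr8:13159088-13159117, plus strand: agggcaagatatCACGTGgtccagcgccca
Gaa, chr11:119267811-119267840, plus strand: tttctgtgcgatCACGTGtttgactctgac
The Lamp1 promoter held these letters 4 times. A match is only a run of letters, and binding was not measured. Of the 11 genes with the letters, Gla had too few UMIs in muscle-rich spots for a fold, and the other 10 had log2 changes between muscle-poor and muscle-rich spots (described below) from -0.49 to 2.22, with a median of 1.02. The 23 tested genes whose listed promoters lack them ranged from -0.87 to 3.38, with a median of 1.47.

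The first comparison asks how much lysosomal RNA whole sections held with and without infarction. The 41 genes together took up 0.543% of the control's non-mitochondrial UMIs, and 1.71%, 2.37% and 1.80% of those of the infarcted sections. The control was lowest and the 5 dpi section labelled female highest. No test was run on whole sections, since the control and 3 dpi are 1 heart each. A fold is therefore given for the infarcted section nearest to the control, and intervals are exact 95% Poisson intervals that cover counting error only. In tissue spots, more cells of a kind and more RNA per cell cannot be told apart.

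**Figure D1:**
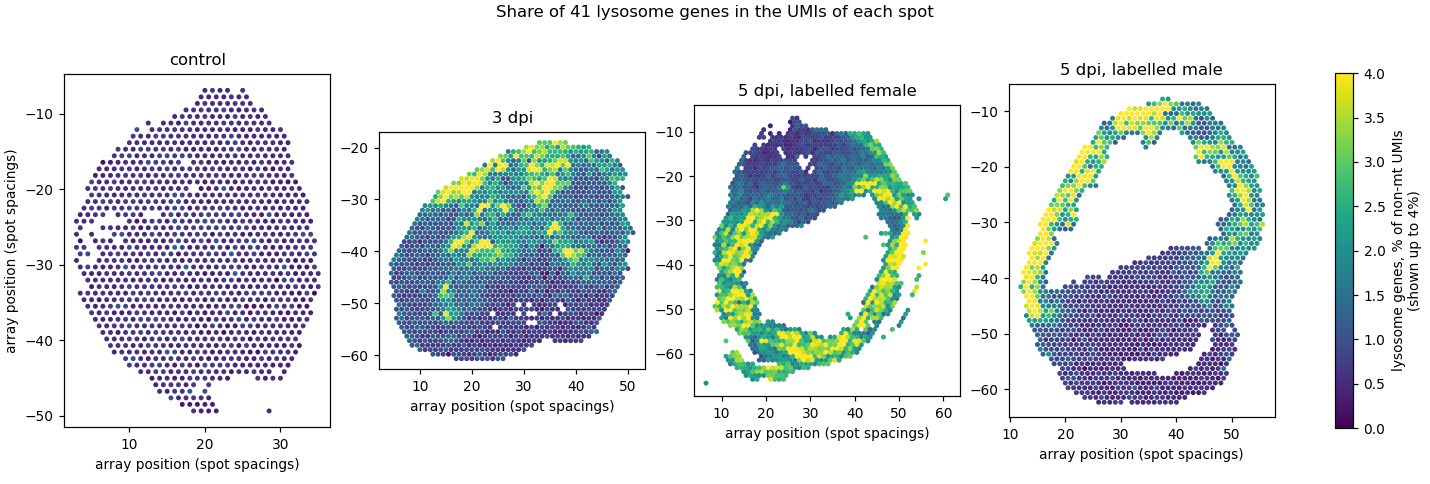
Each point is 1 spot at its place on the array, in spot spacings, coloured by the percent of its non-mitochondrial UMIs that came from the 41 lysosome genes, with values over 4% drawn as 4%. The median spot was at 0.532%, 1.25%, 2.03% and 1.01% from left to right, and high spots lie along an arc of the wall in both 5 dpi sections and in patches at 3 dpi.

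Among the 35 genes with 50 CPM or more in any section, 25 (71.4%) exceeded the control at least 2-fold in all 3 infarcted sections, and 0 were 2-fold lower. Among all 3524 genes at that level, 26.0% were 2-fold higher and 8.63% lower. Of the 35 genes, 16 reached 50 CPM only after infarction, Ctss and Cd68 among them, and so entered through the sections where they were high. Of the 19 whose control level was itself 50 CPM or more, a limit added after seeing the data, 12 (63.2%) were at least 2-fold higher, against 9.20% of all genes at that limit. Without the 5 dpi section labelled female the count was 25, and without the section labelled male 26. TMM scaling, which lowered the infarcted sections by 0.43, 0.48 and 0.35 on the log2 scale against the control, left 21. The median fold in the nearest section was 3.27 for the 35 genes and 1.23 for all genes at that level. All 9 cathepsins and all 3 soluble cofactors passed 2-fold, as did 8 of 10 hydrolases, 2 of 5 pump genes and 3 of 8 membrane proteins.

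Among the 35 genes, the nearest infarcted section stood farthest above the control for Ctss and Cd68. Ctss, a cathepsin of antigen-presenting cells, stood at 30.7 CPM in the control (25.4 to 36.9), then at 568, 1012 and 685 CPM. Its nearest infarcted section stood 18.5-fold above the control. Cd68, a membrane glycoprotein used as a macrophage marker, was at 15.2 CPM (11.5 to 19.7), 260, 358 and 277, at least 17.1-fold above the control in each. Both genes thus had every infarcted section far above the control's interval. Laptm5, a membrane protein of blood cells, was at 18.2, 195, 290 and 172 CPM, and Ctsz, a carboxypeptidase, at 62.8, 515, 753 and 630 CPM. Lgmn, the asparaginyl endopeptidase legumain that also processes cathepsins, was at 81.8, 655, 917 and 702 CPM.

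The genes that give the most lysosomal UMIs were higher by smaller factors. Ctsb, a cysteine protease of broad specificity, was at 471, 2812, 3829 and 2717 CPM, and Ctsd, the main aspartic protease of the lysosome, at 921, 2523, 3843 and 2826 CPM. Psap, the precursor of the saposins, was at 1193, 2794, 3705 and 2952 CPM. The infarcted sections stood at least 5.77-fold, 2.74-fold and 2.34-fold above the control for the 3 genes.

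Other lysosomal genes stood close to the control. Gaa, the acid alpha-glucosidase that breaks down glycogen, had 124 CPM in the control and 114, 145 and 140 CPM after infarction. Laptm4a, a small membrane protein, was at 276, 312, 279 and 239 CPM. Tfeb was at 26.7 (21.7 to 32.5), 31.3, 24.0 and 20.0 CPM. In these 3 genes the infarcted sections lay on both sides of the control, whereas the other 38 were higher than the control in 3 of 3 infarcted sections (38 without the section labelled female, 39 without the section labelled male). Among the 40 tested below, this was 37 (92.5%), against 64.9% of all genes tested there. The pump gene Atp6v0d2, a d2 subunit found in osteoclasts and some macrophages, gave 1, 63, 125 and 53 UMIs in section order. With Gla, Neu1, Mcoln1, Tfeb and Tfec it stayed under 50 CPM in every section.

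**Figure D2:**
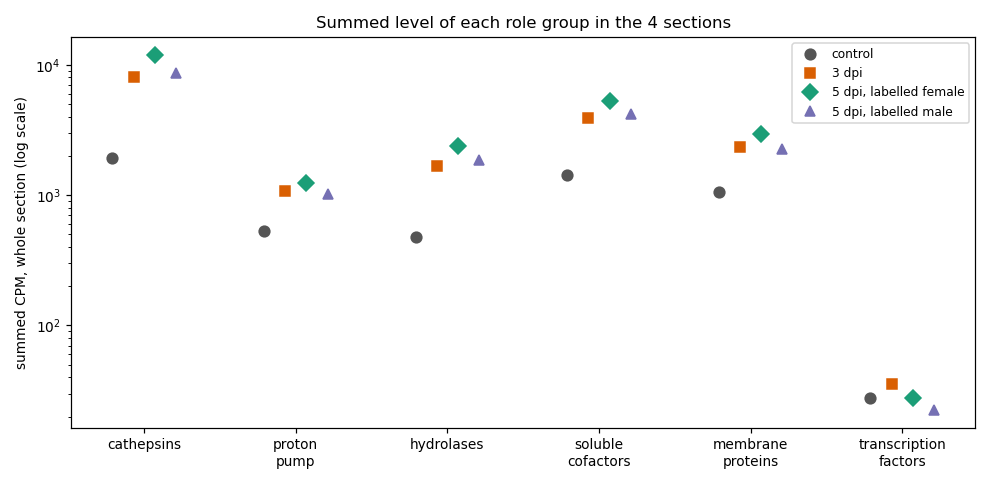
Summed CPM of each role group (log axis) in the 4 sections, 1 point per section and no error bar because each section is 1 heart. The cathepsins stood at 1930 CPM in the control and 7998 to 11878 CPM after infarction, and the 2 transcription factors at 27.8 CPM in the control and 22.5 to 35.6 CPM after it.

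The 3 dpi section was lower than both 5 dpi sections for 21 of the 35 genes (60.0%), against 29.5% of all genes at that level, and higher than both for 1, Laptm4a, among the 35. This rests on the section labelled male: against the section labelled female alone, 34 of the 35 were lower at 3 dpi (97.1%, against 49.2% of all genes), and against the section labelled male alone 21 (60.0%, against 40.3%). The cathepsin sum was 7998 CPM at 3 dpi and differed between the 5 dpi hearts, at 11878 and 8692 CPM. Spots low in muscle RNA made up 52.0%, 71.8% and 48.8% of these sections, so the section with the most such spots was also the one with the highest sums. Between the remaining sections the order was reversed. The section labelled male had a smaller share of such spots than 3 dpi but the higher cathepsin sum. The part of this share in the differences between days was not tested.

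The make-up of the lysosomal UMIs differed too. Ctsb, Ctsd and Psap together gave 47.6%, 47.6%, 47.9% and 47.2% of them in section order, a sum in which Ctsb went from 8.67% in the control to between 15.1% and 16.5% in the infarcted sections and Psap from 22.0% to between 15.6% and 16.4%. Ctss went from 0.566% to 3.33%, 4.26% and 3.80%, and Lamp1, the most abundant glycoprotein of the lysosomal membrane, from 5.87% to between 2.25% and 2.69%. For each UMI of 10 macrophage markers there were 6.0 lysosomal UMIs in the control and 3.43, 2.60 and 2.69 in the infarcted sections. None of those 10 markers was at 0 in the control.

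The main comparison asks how lysosomal RNA differs between infarct and surviving muscle of the same heart. Each spot was placed by its share of 12 cardiomyocyte marker genes, divided by the 90th percentile of this share among the spots of the same section. Muscle-poor spots were under 0.25 of it, quarter-muscle spots from 0.25, half-muscle spots from 0.5, and muscle-rich spots at 0.75 or over. The infarcted sections held 516, 952 and 591 muscle-poor and 497, 286 and 509 muscle-rich spots. UMIs were summed per section and class, and edgeR's quasi-likelihood test with the section as a block and Benjamini-Hochberg adjustment over 10521 genes gave the calls below, at an adjusted p under 0.05.

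In muscle-poor spots 34 lysosome genes were higher than in muscle-rich spots, 3 were lower and 3 were not called, while Tfec was under the filter on low counts. None of the 3 called lower was lower by CPM in 3 of 3 sections. The share called higher was 85.0% of the 40 tested, against 30.8% of all genes tested, and 27.1% of all genes were called lower. Atp6v0d2 and Gla had under 10 UMIs in the muscle-rich spots of every section and passed the filter only through the muscle-poor spots, so their calls carry no weight, and without them 32 of 38 (84.2%) were called higher, a count added after seeing the data. The median log2 change was 1.33 for the 40 genes and 0.09 for all genes. The test's TMM scaling places log2 changes 0.43 lower than the mean CPM ratio over sections does, in the median of all genes. Without the 5 dpi section labelled female 32 genes were called higher, without the section labelled male 33, and without the 3 dpi section 33. In the sum over the 41 genes, muscle-rich spots held 8160, 8376 and 6049 CPM and muscle-poor spots 26620, 29060 and 28065 CPM, so that the classes did not overlap.

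**Figure D3:**
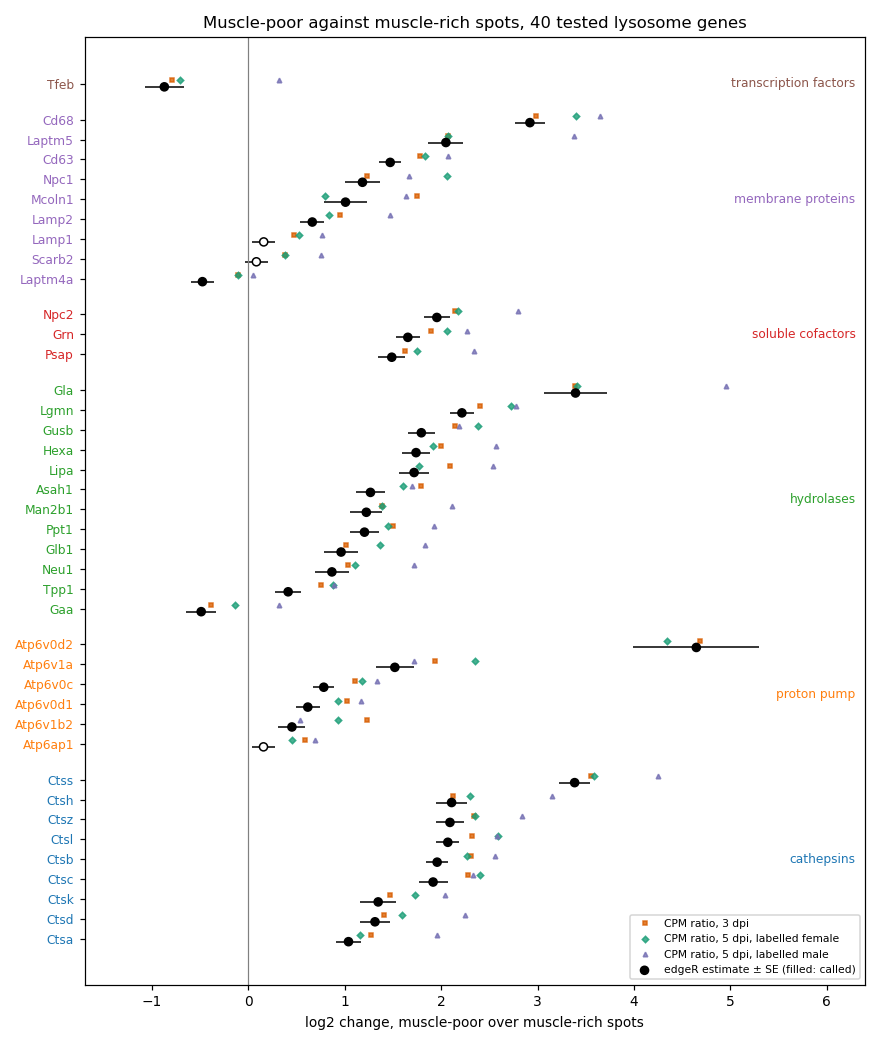
Log2 change of muscle-poor over muscle-rich spots for the 40 tested lysosome genes, grouped by role. Black points are edgeR estimates with SE (filled when called), and coloured points are the CPM ratios of the 3 infarcted sections, which lie mostly to the right of the estimates because TMM scaling takes off 0.43 in the median gene; Atp6v0d2 has no ratio in the section labelled male, where muscle-rich spots had 0 UMIs.

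All 9 cathepsins rose, with log2 changes from 1.04 to 3.38. Ctss was at 91.5, 113 and 64.7 CPM in muscle-rich and 1076, 1353 and 1229 CPM in muscle-poor spots, a 10.4-fold change (log2 3.38, SE 0.16, adjusted p = 6.6e-13, edgeR). Ctsh, an aminopeptidase, was at 84.7, 96.3 and 60.4 against 369, 475 and 535 CPM (log2 2.11, SE 0.16). Ctsz was at 171, 184 and 145 against 864, 935 and 1042 CPM (log2 2.09, SE 0.14). In these 3 genes every muscle-poor value was above every muscle-rich value. Ctsb was at 950, 1000 and 750 against 4709, 4828 and 4407 CPM (log2 1.96, SE 0.12). Ctsl, another broad cysteine protease, was at 235, 231 and 217 against 1167, 1391 and 1294 CPM (log2 2.07, SE 0.12). Ctsd was at 1436, 1510 and 903 against 3795, 4568 and 4302 CPM (log2 1.31, SE 0.15). Their classes did not overlap either. Ctsk, the collagen-cutting cathepsin of bone-resorbing cells, is followed separately below because it departs from the other cathepsins, and was chosen after its values were seen. It was at 13.1, 21.0 and 11.8 against 36.1, 69.5 and 48.7 CPM (log2 1.35, SE 0.19).

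Of the 6 pump genes, 5 were called higher, 1 of them Atp6v0d2. It had 1, 1 and 0 UMIs in the muscle-rich spots and 47, 119 and 53 in the muscle-poor spots, too few in muscle-rich spots for a fold. Atp6v1a, the catalytic subunit, was at 19.3, 13.1 and 15.7 against 74.0, 67.1 and 51.8 CPM (log2 1.52, SE 0.20). Atp6v0c, the subunit of the rotating ring, was at 410, 383 and 336 against 880, 871 and 845 CPM (log2 0.78, SE 0.11). The increases of the ubiquitous subunits were thus smaller than those of most cathepsins, while the values of the classes still did not overlap for these 2 genes. Atp6ap1, an assembly factor of the pump, had a log2 change of 0.16 (SE 0.12) and was not called, although its CPM was higher in muscle-poor spots in 3 of 3 sections.

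Of the 12 other hydrolases, 11 were called higher, 1 of them Gla, and 1 lower. Gla, alpha-galactosidase A, had 5, 3 and 2 UMIs in muscle-rich spots and 96, 186 and 114 in muscle-poor spots, at 2.84, 2.63 and 0.875 against 29.8, 27.9 and 27.1 CPM. Lgmn was at 211, 179 and 170 against 1122, 1183 and 1164 CPM (log2 2.22, SE 0.13). Gusb, beta-glucuronidase, was at 51.1, 46.4 and 49.9 against 226, 242 and 227 CPM (log2 1.79, SE 0.14). The classes did not overlap for Lgmn and Gusb, which varied little between sections within a class.

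Gaa was the hydrolase called lower, at log2 -0.49 (SE 0.16, adjusted p = 0.011, edgeR), but the sections did not move together. It was at 128, 150 and 120 CPM in muscle-rich and 97.3, 136 and 150 CPM in muscle-poor spots, higher in the section labelled male by CPM, and the ranges overlap. The fitted change of Gaa is close to the 0.43 that TMM scaling takes off in the median gene. Its call was lost without the section block, without 3 dpi (log2 -0.31) and without the section labelled female (log2 -0.51). Tpp1, a peptidase called higher at log2 0.41, lost its call without the section labelled female (0.34) or male (0.40), by DESeq2 (0.35), with quartile classes (0.39) and with the control's scale (0.34). The pump subunit Atp6v1b2, called higher at log2 0.45, lost its call without 3 dpi (0.30), without the section labelled female (0.38) and by DESeq2 (0.39). Both were chosen after their values were seen.

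All 3 soluble cofactors rose. Psap, whose saposins help enzymes reach sphingolipids, was at 1483, 1367 and 946 against 4583, 4586 and 4790 CPM (log2 1.49, SE 0.14). Npc2, which carries cholesterol, was at 166, 192 and 140 against 734, 867 and 968 CPM (log2 1.96, SE 0.13). Grn, progranulin, was at 280, 269 and 204 against 1039, 1125 and 981 CPM (log2 1.65, SE 0.13). None of the 3 had overlapping classes.

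Of the 9 membrane proteins, 6 rose, 1 was called lower and 2 were not called. Cd68 was at 61.9, 45.5 and 39.4 CPM in muscle-rich and 490, 479 and 493 CPM in muscle-poor spots, a 7.57-fold change (log2 2.92, SE 0.15, adjusted p = 2.6e-12, edgeR). Laptm5 was at 75.6, 85.8 and 28.0 against 318, 359 and 290 CPM (log2 2.05, SE 0.18). Cd63, a tetraspanin of late endosomes, was at 297, 329 and 270 against 1017, 1170 and 1133 CPM (log2 1.47, SE 0.11). Lamp2, a glycoprotein of the limiting membrane chosen after its values were seen, rose by log2 0.66 (SE 0.13). Lamp1 (log2 0.16, SE 0.12) and Scarb2 (log2 0.08, SE 0.12), a receptor that brings glucocerebrosidase to the lysosome, were not called, with CPM higher in muscle-poor spots in 3 of 3 sections. Laptm4a was called lower (log2 -0.48, SE 0.12, adjusted p = 0.0019, edgeR) at 299, 290 and 236 against 277, 269 and 244 CPM, where the section labelled male was higher in muscle-poor spots by CPM and the fitted change is close to the 0.43 that TMM scaling takes off.

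Of the transcription factors, Tfeb was called lower (log2 -0.87, SE 0.20, adjusted p = 0.00097, edgeR). It was at 48.9, 35.0 and 17.5 CPM in muscle-rich and 28.3, 21.4 and 21.9 CPM in muscle-poor spots, with the section labelled male higher in muscle-poor spots by CPM and overlapping ranges. Tfec, a relative found mainly in macrophages, had 1 UMI in the muscle-rich spots of each section and 27, 33 and 20 in muscle-poor spots, at 0.568, 0.875 and 0.437 against 8.39, 4.94 and 4.75 CPM, and was not tested.

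**Figure D4:**
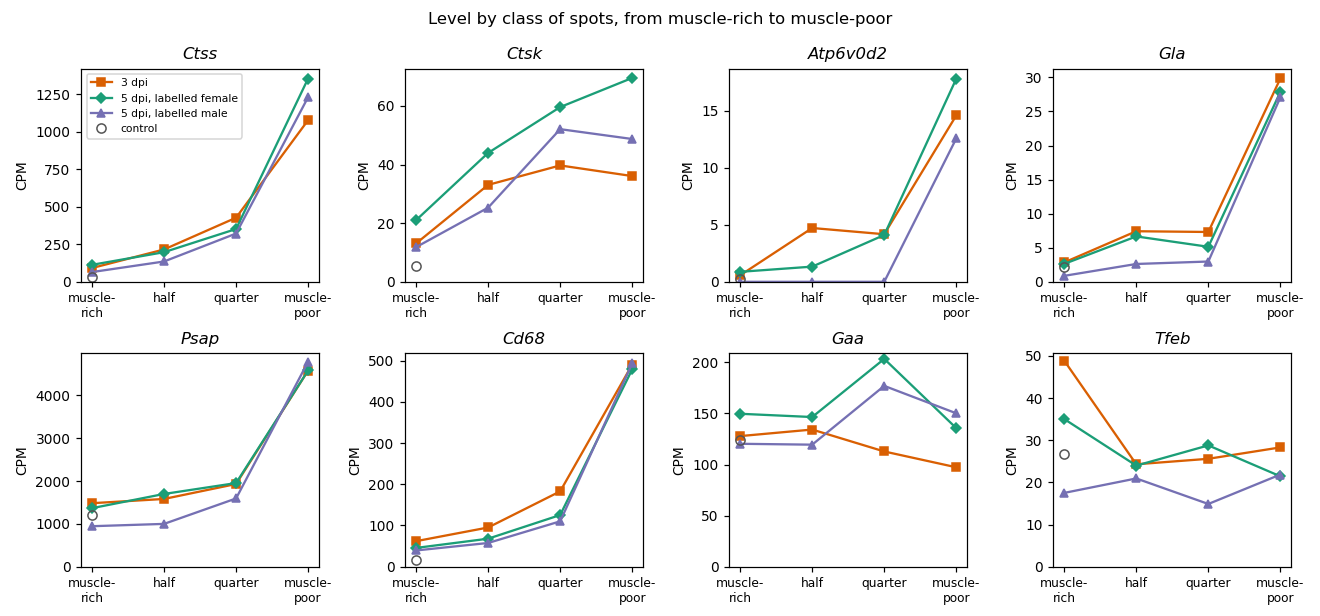
CPM of 8 lysosome genes in 4 classes of spots, from muscle-rich to muscle-poor, 1 line per infarcted section, with the muscle-rich spots of the control as an open circle. Ctss, Atp6v0d2, Gla, Psap and Cd68 are highest in the muscle-poor class in all 3 sections, Ctsk is already near its highest level in quarter-muscle spots, and Gaa and Tfeb have no common order.

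Across the 4 classes, 34 of the 41 genes were highest in the muscle-poor class in 3 of 3 sections, and for 19 the CPM was higher at every step in 3 of 3 sections. Among the 38 tested genes other than Atp6v0d2 and Gla, these were 31 (81.6%, against 33.5% of all genes tested) and 19, against 8.77% of all genes tested. Over the 41 genes, without the section labelled female the counts were 34 and 24, without the section labelled male 35 and 22, and without 3 dpi 35 and 23. Several other quantities moved with the classes. Macrophage markers summed to 1660, 1958 and 1422 CPM in muscle-rich and 8273, 11629 and 11249 CPM in muscle-poor spots, and 10 of 10 were called higher. Of 5 neutrophil markers, 3 were tested and 3 were called higher, with sums of 29.5, 81.4 and 24.5 against 350, 268 and 247 CPM. Of 8 fibroblast markers, 6 were called higher, and of 6 endothelial markers 4 were called lower. The 2 lymphocyte markers tested were called higher. All 5 lymphocyte markers together were at 5.11, 6.13 and 2.19 CPM in muscle-rich and 23.6, 21.7 and 27.8 CPM in muscle-poor spots. These calls rest on very few UMIs in muscle-rich spots and carry no weight. Mitochondrial UMIs made up 28.7% to 40.8% in muscle-rich and 2.07% to 5.36% in muscle-poor spots, and the median spot held 3166 to 4234 against 6106 to 7024 non-mitochondrial UMIs. The part of each in the lysosomal differences was not tested. Lysosomal UMIs per macrophage-marker UMI were 4.92, 4.28 and 4.25 in muscle-rich and 3.22, 2.50 and 2.49 in muscle-poor spots.

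The half-muscle spots show where along this axis the genes differ from muscle-rich spots. Here 8 lysosome genes were called higher and 0 lower, 20.0% of the 40 tested against 3.67% of all genes. They were Ctsk (log2 1.01, SE 0.22), Ctss (0.86), Cd63 (0.56), Ctsz (0.51), Lgmn (0.51), Npc2 (0.50), Ctsb (0.48) and Grn (0.42). DESeq2 also called 0 lower, and at an unadjusted p under 0.05 edgeR gave 15 higher and 1 lower, against 2399 of all 10521 genes in either direction. The count fell to 1 without the section labelled female, was 6 without the section labelled male and 5 without 3 dpi, so the calls depend on single sections. In the same order, 104 of 10808, 183 of 10644 and 272 of 9786 genes in all were called higher. The log2 changes themselves stayed near their values without the section labelled female, at 1.05 for Ctsk, 0.95 for Ctss, 0.58 for Cd63 and 0.36 to 0.49 for the other 5. Of the macrophage markers 3 of 10, and of the fibroblast markers 4 of 8, were called higher in the same comparison. Ctsk was at 33.1, 43.9 and 25.3 CPM in half-muscle spots, above its 3 muscle-rich values, and at 39.7, 59.6 and 52.1 CPM in quarter-muscle spots. Psap, by contrast, was at 1583, 1699 and 1000 CPM in half-muscle spots, which overlaps its muscle-rich range (log2 -0.02, SE 0.14, not called). By CPM, Psap was still higher than in muscle-rich spots in 3 of 3 sections. TMM scaling places log2 changes of this comparison 0.19 lower than CPM ratios do, in the median of all genes.

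Muscle-rich spots of infarcted hearts were also set beside those of the control, with no test. Of 27 lysosome genes at 50 CPM or more in a muscle-rich class, 4 (14.8%) were at least 2-fold above the control in all 3 infarcted sections, against 4.16% of all genes at that level. They were Cd68, Ctsz, Ctss and Lgmn, at 2.59, 2.36, 2.19 and 2.09-fold in the nearest section. Cd68 and Ctss were under 50 CPM in the control and entered through the infarcted sections, and with the limit set on the control's muscle-rich spots 2 of 19 genes (10.5%), Ctsz and Lgmn, were 2-fold higher, against 1.50% of all genes. Above the control by any amount in 3 of 3 sections were 20 of 27 (74.1%), against 40.1% of all genes. Both counts were the same without the section labelled female (against 4.26% and 44.1% of all genes) and without 3 dpi (against 5.63% and 43.4%). Without the section labelled male, 8 (29.6%, against 5.63% of all genes) were at least 2-fold above the control, with Ctsb, Ctsc, Grn and Laptm5 added, and 27 of 27 were above it, against 50.8%. In the same spots macrophage markers summed to 882 CPM in the control and 1660, 1958 and 1422 CPM in the infarcted sections, fibroblast markers to 1175 against 3274, 5101 and 2958 CPM, and cardiomyocyte markers to 102049 against 98373, 84743 and 85899 CPM. Their part in these counts was not tested.

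Whether the difference between muscle-poor and muscle-rich spots changed from 3 to 5 dpi was tested by the interaction of class and time, which assumes that the lone 3 dpi section varies as the 5 dpi sections do. Of the 40 lysosome genes, 0 were called by edgeR, against 1.46% of all genes in either direction, and DESeq2 called 0. At an unadjusted p under 0.05 edgeR gave 3 of the 40, a smaller share than the 1065 of all 10521 genes. The 3 were Ctsd (log2 0.58), Ctsh (0.68) and Cd68 (0.60), all with the larger difference at 5 dpi. The SE of this term was 0.24 for Ctsb and 0.43 for Ctsk, which bounds the precision that these 3 sections give.

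Within the infarct, spots with a relative cardiomyocyte share under 0.5 were divided in each section into tertiles (3 groups of nearly equal numbers of spots) by their share of 10 macrophage markers, and, separately, by their share of 8 fibroblast markers. Neither list holds a lysosome gene. The comparison asks with which cells' RNA the lysosome genes go.

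In macrophage-rich spots 34 of the 41 lysosome genes were called higher and 0 lower, 82.9% against 13.8% of all genes called higher and 15.6% called lower. DESeq2 called 31 higher and 0 lower, and at an unadjusted p under 0.05 edgeR had 2 lower, Gaa and Laptm4a. The count of higher genes was 32 without the section labelled female, 31 without the section labelled male, and 33 within muscle-poor spots alone. Atp6v0d2 and Tfec had under 10 UMIs in the macrophage-poor spots of every section and passed the filter through the macrophage-rich spots, and without them 32 of 39 (82.1%) were called higher, a count added after seeing the data.

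Atp6v0d2 was at 4.61, 3.65 and 2.46 CPM in macrophage-poor and 16.2, 24.7 and 19.6 CPM in macrophage-rich spots, from 8, 9 and 4 UMIs in the former. Ctss had the highest change among the other 39, at 363, 528 and 378 against 1370, 1847 and 1902 CPM (log2 1.94, SE 0.10), followed by Gla (log2 1.91, SE 0.19) and Cd68 (log2 1.90, SE 0.12). Macrophage-rich values lay above all macrophage-poor values for Ctss. Tfec was at 3.45, 2.43 and 1.23 against 10.3, 8.13 and 8.58 CPM, from 6, 6 and 2 UMIs in macrophage-poor spots, while Tfeb, at 29.4, 25.6 and 12.3 against 26.5, 24.7 and 24.5 CPM, was not called. Psap and Ctsl each rose by log2 1.53. Lamp1, not called on the muscle axis, rose by log2 0.48 (SE 0.08), a call lost without the section block at the same log2 change.

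The 7 genes not called were Ctsk, Gaa, Laptm4a, Scarb2, Atp6ap1, Mcoln1 and Tfeb. Ctsk was at 39.7, 64.9 and 50.5 CPM in macrophage-poor and 38.4, 59.7 and 44.7 CPM in macrophage-rich spots (log2 -0.18, SE 0.13). It was the single cathepsin of the 9 without a call. The cardiomyocyte share of UMIs was 3.23%, 1.54% and 1.88% in macrophage-poor and 0.975%, 0.208% and 0.171% in macrophage-rich spots, and 3 of 3 tested neutrophil markers and 2 of 2 tested lymphocyte markers were called higher and 4 of 6 endothelial markers lower. All 5 lymphocyte markers together were at only 13.7, 18.1 and 17.1 CPM over the whole sections. Fibroblast markers, of which 4 of 8 were called higher and 1 lower, summed to 12520, 23564 and 20979 against 14087, 23522 and 21078 CPM.

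**Figure D5:**
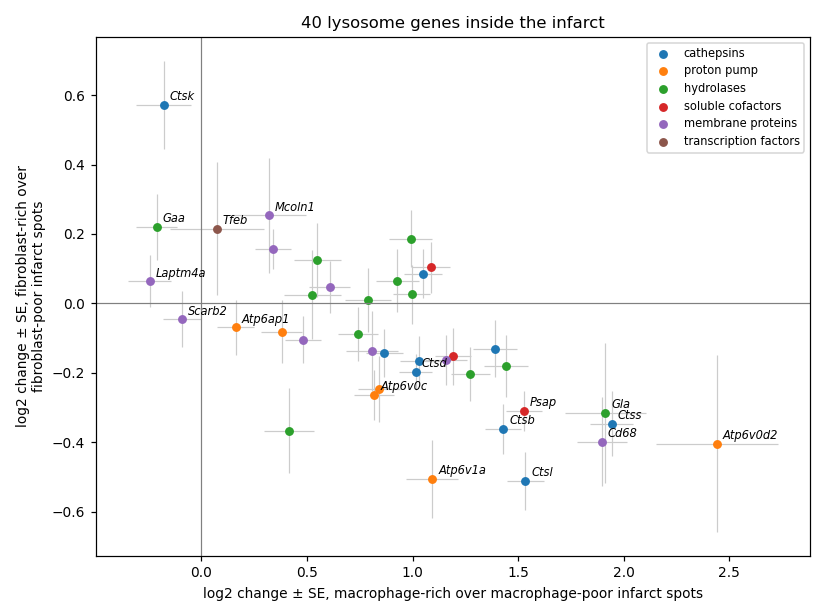
Log2 change with SE of 40 lysosome genes between macrophage-rich and macrophage-poor tertiles (x axis) and fibroblast-rich and fibroblast-poor tertiles (y axis) of infarct spots, coloured by role. Named points were called between fibroblast tertiles, not called between macrophage tertiles, or above 1.6 on the x axis; Ctsk lies at -0.18 and 0.57, and Ctsl at 1.53 and -0.51.

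Between fibroblast tertiles, Ctsk was the 1 lysosome gene called higher, 2.5% of the 40 tested, which is below the 5.10% of all genes. Ctsk was at 32.1, 57.7 and 33.6 CPM in fibroblast-poor and 40.6, 83.4 and 64.6 CPM in fibroblast-rich spots (log2 0.57, SE 0.13, adjusted p = 0.0051, edgeR). It was higher in 3 of 3 sections, though the ranges overlap, and the call was lost by DESeq2, without the section block, and without either 5 dpi section (log2 0.65 and 0.45). Per 1000 fibroblast-marker UMIs, Ctsk gave 3.99, 4.12 and 3.99 UMIs in muscle-rich and 2.57, 2.75 and 2.11 in muscle-poor spots.

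Called lower in fibroblast-rich spots were 7 genes (17.5%, against 4.82% of all genes), each also called higher in macrophage-rich spots, as were 103 of the 508 genes called lower in all (20.3%). They were Ctsl (log2 -0.51, SE 0.08), Atp6v1a (-0.51, SE 0.11), Ctsb (-0.36, SE 0.07), Ctss (-0.35, SE 0.09), Psap (-0.31, SE 0.06), Atp6v0c (-0.26, SE 0.07) and Ctsd (-0.20, SE 0.05). Ctsl was at 998, 1461 and 1462 CPM in fibroblast-poor and 865, 1051 and 834 CPM in fibroblast-rich spots, and Ctsd at 3412, 4486 and 4325 against 3038, 4175 and 3601 CPM. Each of the 7 was lower in 3 of 3 sections. Without the section labelled female 1 gene was called lower, without the section labelled male 2, and without 3 dpi 15. The count over all genes moved in the same direction, from 508 of 10541 with all sections. It was 119 of 10527 without the section labelled female, lower still without the section labelled male, and 736 of 10954 without 3 dpi. The swing from 1 to 15 is thus not particular to the lysosome genes. Macrophage markers summed to 7281, 10246 and 9648 CPM in fibroblast-poor and 7017, 11045 and 9900 CPM in fibroblast-rich spots, with 0 of 10 called by edgeR and 0 of 10 at an unadjusted p under 0.05. Other cells' markers did differ: 12 of 12 cardiomyocyte markers were called lower, with shares of 2.25%, 1.01% and 1.28% in fibroblast-poor and 1.74%, 0.446% and 0.551% in fibroblast-rich spots, 2 of 5 mural markers (Pdgfrb and Rgs5) higher, and 1 of 4 tested neutrophil markers (S100a9) lower. Their part in the lysosomal differences was not tested.

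Beyond these genes, 62 other lysosomal genes were listed, and 61 passed the filter. In muscle-poor spots 36 of them rose (59.0%, against 30.8% of all genes) and 9 fell (14.8%, against 27.1%), with a median log2 change of 0.70. Called higher were 16 of 23 other hydrolases, 4 of 6 other proteases and protease inhibitors, 6 of 12 other pump subunits, 7 of 12 tested other membrane proteins and transporters, and 2 of 6 sorting receptors and tagging enzymes, the last a share near that of all genes. The highest fitted changes were those of Gpnmb, a membrane glycoprotein of lipid-laden macrophages, at 33.5, 14.9 and 5.25 against 471, 617 and 664 CPM (log2 4.75, SE 0.33), and Acp5, tartrate-resistant acid phosphatase, at 6.25, 3.5 and 2.19 against 91.1, 108 and 104 CPM, which rests on 11, 4 and 5 UMIs in the muscle-rich spots. The lowest were Abcb9, a peptide transporter, at 10.8, 12.3 and 5.69 against 3.11, 2.40 and 2.61 CPM (log2 -2.16, SE 0.34), and Smpd1, acid sphingomyelinase, at 259, 242 and 243 against 101, 74.9 and 78.2 CPM (log2 -1.98, SE 0.14). All 4 had classes that did not overlap. In the interaction of class and time, 2 of the 61 (3.28%, against 1.46% of all genes) were called by edgeR, Gpnmb (log2 2.42, SE 0.42, adjusted p = 0.0011), whose rise was larger at 5 dpi, and Ctsf, a cathepsin outside the 41 (log2 1.63, SE 0.41, adjusted p = 0.036), which was at 37.5, 28.9 and 32.4 against 7.46, 15.7 and 21.1 CPM. With classes set by within-section quartiles of the muscle share, 0 genes in all were called for this term, so both calls were lost.

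Among these others, 3 genes chosen after their values were seen stand beside members of the list. Tcirg1, the a3 subunit of the pump used by osteoclasts and macrophages, rose by log2 2.53 (SE 0.19), from 31.2, 31.5 and 16.6 to 199, 192 and 202 CPM. Of the other Tfeb relatives, Mitf fell by 1.68 on the log2 scale (SE 0.21), from 25.0, 21.0 and 23.2 to 10.9, 10.0 and 8.31 CPM, and Tfe3 rose by log2 0.82 (SE 0.21), from 14.2, 19.3 and 13.1 to 40.1, 36.9 and 32.3 CPM. Within this family, 2 factors were called lower and 1 higher.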

How the data were processed

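The deposited values were raw UMI counts per gene and spot, made by the authors with Space Ranger (1.3.1 per the file headers) on a mouse reference with GFP added. Tissue spots were picked by hand by the authors. Here spots marked as tissue with at least 500 UMIs, 250 genes and at most 50% mitochondrial UMIs were kept, counts were summed per section and class of spots, and these sums, for the 3 hearts with infarction, were tested with edgeR 4.0.16 (limma 3.58.1, R 4.3.3): TMM, the default low-count filter, section as block, and Benjamini-Hochberg adjustment over all genes tested. Sections, 1 per heart, are the replicates, and p-values measure the spread between them. Python 3.11.15, NumPy 2.4.6, pandas 2.3.3, SciPy 1.17.1 and matplotlib 3.10.9 were used, with DESeq2 1.42.0 as an alternative. The code was tested on simulated data. The 4 sections held 6250183, 10656544, 11010109 and 9701545 UMIs in kept spots. UMIs are molecules, and intervals cover counting error only.

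The lysosome genes and all lists were chosen with earlier results of these data known. Values by section are given for Tfeb, Tfec and, in each other role group, for the 3 genes with the largest absolute log2 change on the muscle axis, those called lower, under the filter, or called in opposite directions between macrophage and fibroblast tertiles, and for the 2 highest and 2 lowest called other lysosomal genes. Others are named as chosen after their values were seen or to give a short count. Alternatives changed the scaling, test, filter, block, class limits and spots, and left out each section. The genome build of the labels and that of the methods differ, so no coordinates were taken from the files. Promoters come from RefSeq GRCm38.p6 by symbol.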

Additional observations from a re-analysis of the deposited data

Results flagged for a closer look

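In the 5 dpi section labelled male, 623 spots of the matrix were not marked as tissue and entered no comparison. They held 2229014 non-mitochondrial UMIs, and the 41 lysosome genes summed to 17421 CPM in them, against 18015 CPM in the tissue spots of that section and 5431 CPM in the control, so a lysosomal signal above the control lies in data that were left out. No group had the 4 samples needed to look for a section far from the others. None of the 40 genes tested passed edgeR's test of the interaction of class and time, and 0 passed by DESeq2. At an unadjusted p under 0.05 edgeR gave 3, against 1065 of all 10521 genes.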

How the results depend on the processing

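Counts of genes higher or lower in muscle-poor spots, higher in macrophage-rich spots, called for time, and at least 2-fold higher in whole sections stayed within 1.5 times of their values under every alternative run. The 8 genes higher in half-muscle spots became 0 without the section block, 1 with classes set by within-section quartiles of the muscle share, 3 with the share scaled to the control, and 1 to 6 when 1 section was left out. In fibroblast-rich spots the 1 higher gene became 0 by DESeq2 and without the block, and 0 to 2 when 1 section was left out, and the 7 lower genes became 3 by DESeq2, 0 without the block, 18 in muscle-poor spots alone, and 1 to 15 when 1 section was left out. Scarb2, not called on the muscle axis, changed sign with quartile classes (log2 -0.021) and without the 5 dpi section labelled male (-0.028, in a range to 0.16 over the sections left out), as did Tfeb between macrophage tertiles without that section (-0.18, in a range to 0.26). Over all genes, half-muscle calls went from 1029 to 142 without the block, 226 with quartile classes, 550 with the control's scale, and 356 and 555 without the female-labelled and male-labelled section. Fibroblast calls went from 1046 to 479 by DESeq2, 0 without the block, 653 with spots split at the median, and 334 and 319 without each 5 dpi section, and interaction calls from 154 to 70 by DESeq2 and 0 with quartile classes. Of the values of single genes recomputed, 977 kept their direction and side of the threshold, 87 lost their call and 3 changed sign. The causes were not tested. Leaving out a section could not be run for the interaction, which then has no spread left among sections. The section block pairs the classes and tertiles of 1 section, and the labels give no replicate numbers that would pair sections with each other.

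Precision was limited by 1 section each for the control and 3 dpi, and by depth for Atp6v0d2, Gla, Tfec and Acp5, which had 0 to 11 UMIs in the muscle-rich spots of a section.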
